A study of Mus musculus with 5 samples.

Results

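The genes described here encode the proteins of the mitochondrial ribosome. They were taken as every row of the deposited expression table whose gene name starts with MRPL or MRPS followed by a digit, without pseudogene rows, and with Mrpl42 left out. This rule found 64 of the 12930 genes in the table, 38 named for the large subunit and 26 for the small subunit. The reference annotation holds 77 genes that meet the same rule, and the other 13 (Mrpl1, Mrpl10, Mrpl17, Mrpl33, Mrpl34, Mrpl36, Mrpl41, Mrpl45, Mrpl50, Mrpl55, Mrps14, Mrps23 and Mrps28) were not analysed here. Mrpl42, which the rule leaves out, lay farther below the control than any gene described here, at -1.67 and -2.06 in the siDhx30 libraries and -1.69 and -1.86 in the siTfam libraries on the log2 scale.

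RNA-seq libraries were made from total RNA of OG2 mouse embryonic stem cells, a line name given to cells that carry a green fluorescent reporter under Oct4 regulatory sequence. There were 2 libraries from cells transfected with siRNA against Dhx30 (siDhx30), 2 from cells transfected with siRNA against Tfam (siTfam) and 1 from cells labelled as negative control (NC). Every culture, NC included, spent 24 h in N2B27 medium with LIF, PD0325901 and CHIR99021, then received 50 nM siRNA and was held for 36 h in medium with bFGF and Activin A. The libraries therefore come from cells moved out of naive medium for 36 h, not from steady stem cell cultures. Whether the cells had left the naive state was not measured here. No label says whether the 2 libraries of a group came from separate cultures, so the p-values rest on a spread that may be no more than technical.

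The mitochondrial ribosome translates the few proteins encoded by mitochondrial DNA, all of them parts of the respiratory chain and ATP synthase. Its RNAs are transcribed inside the organelle, whereas its proteins are encoded in the nucleus, made in the cytosol and imported. The large subunit forms peptide bonds, the small subunit decodes the messenger, and each combines proteins inherited from bacteria with proteins found only in mitochondria. Dhx30 is an RNA helicase of the mitochondrial RNA granules, needed in human cells to assemble the large subunit, and Tfam packages mitochondrial DNA and starts its transcription. The comparison asks what the transcripts of the ribosome's nuclear genes did when either protein was targeted.

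Stretches upstream of the start sites of 6 of these genes are shown because they stand for the sequence features described last and for the genes lowest or highest among the members. They are RefSeq promoter windows (GRCm38.p6), read 5′ to 3′ on the gene's own strand and trimmed to the bases before the start that lie in no annotated exon. Capitals mark the letters CCGGAAG (the core of ETS family sites), GCATGCG (the core of NRF1 sites) or AAGATGG (the core of YY1 sites), or their reverse complements. Mrps22 (chr9:98601680-98601929, minus strand) has an ETS core beginning 11 bases before the start. Mrpl43 (chr19:45006443-45006557, minus strand) has ETS cores beginning 56 and 12 bases before it. Mrps27 (chr13:99344706-99344785, plus strand) has a reversed ETS core at 48 bases. Mrpl22 (chr11:58171414-58171660, plus strand) has an ETS core at 53 bases and a pair of overlapping NRF1 cores on opposite strands at 32 and 31 bases. Mrpl52 (chr14:54426659-54426908, plus strand) has a YY1 core at 91 bases and a reversed ETS core at 47 bases. Mrpl46 and Mrps11, of the large and the small subunit, lie head to head, and the stretch of 29 bases shown on the Mrpl46 strand (chr7:78783090-78783118, minus strand) holds none of these letters.
Mrps22: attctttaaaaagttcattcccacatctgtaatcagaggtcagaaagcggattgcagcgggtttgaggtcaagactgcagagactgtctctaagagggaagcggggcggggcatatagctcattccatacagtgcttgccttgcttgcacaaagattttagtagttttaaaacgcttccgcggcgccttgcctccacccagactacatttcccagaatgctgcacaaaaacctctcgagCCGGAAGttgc
Mrpl43: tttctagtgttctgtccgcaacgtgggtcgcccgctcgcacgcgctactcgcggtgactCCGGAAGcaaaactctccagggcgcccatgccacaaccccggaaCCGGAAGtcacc
Mrps27: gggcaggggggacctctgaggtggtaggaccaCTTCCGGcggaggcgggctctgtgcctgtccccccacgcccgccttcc
Mrpl22: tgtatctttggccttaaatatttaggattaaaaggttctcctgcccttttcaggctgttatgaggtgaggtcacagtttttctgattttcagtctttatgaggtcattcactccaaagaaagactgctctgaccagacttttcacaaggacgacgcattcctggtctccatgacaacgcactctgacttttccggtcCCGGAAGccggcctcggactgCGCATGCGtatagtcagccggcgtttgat
Mrpl52: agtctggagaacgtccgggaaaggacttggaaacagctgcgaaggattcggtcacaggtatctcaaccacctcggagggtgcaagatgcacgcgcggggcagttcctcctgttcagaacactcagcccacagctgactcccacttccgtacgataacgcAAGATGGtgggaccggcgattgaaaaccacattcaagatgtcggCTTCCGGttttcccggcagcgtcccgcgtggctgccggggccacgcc
Mrpl46: gcccctcgccggcccgcgttgcctcatgg

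Each value below is a log2 ratio of 1 siRNA library over the single NC library, so 0 is the NC level and -1 is 2-fold below it. The deposited columns appear to carry the opposite sign. It was turned because 842 genes lack a value in at least 1 column, and all 1574 values that those genes do have are negative as deposited, which is what a low NC in the numerator gives. If the deposited sign were kept, every direction against NC, and between siDhx30 and siTfam, would be the mirror image of the one given here. Levels, counts and depth were not analysed here, so no counting interval is given and abundant genes could not be told from scarce ones. Exons of 26 members overlap a gene on the opposite strand, exons of 7 overlap one on the same strand, and 15 members share at least 200 bases at 95% identity or more with another gene, so that 37 of 64 have ratios that reads of another gene could have entered. Among the genes given with values below this holds for Mrpl12, Mrpl18, Mrpl21, Mrpl43, Mrpl44, Mrpl46, Mrpl48, Mrpl58, Mrps11, Mrps18b, Mrps18c, Mrps24, Mrps25, Mrps26, Mrps27, Mrps30 and Mrps36, and does not hold for Mrpl11, Mrpl35, Mrpl39, Mrpl52, Mrpl54, Mrpl57, Mrps2, Mrps12, Mrps15, Mrps18a and Mrps22.

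Each targeted gene lay slightly below NC in its own knockdown, and neither passed the test. Dhx30 lay at -0.40 and -0.20 in the siDhx30 libraries and at 0.01 and 0.04 in the siTfam libraries, so its siDhx30 values were below both siTfam values. The limma difference from NC was -0.30 ± 0.20 (SE, n = 2 siDhx30 libraries against 1 NC, adjusted p = 0.998). Tfam lay at -0.28 and -0.02 in the siTfam libraries and at 0.12 and -0.01 in the siDhx30 libraries, and its second siTfam value was at the level of its second siDhx30 value (siTfam against NC, -0.15 ± 0.22, limma adjusted p = 0.987). Of the 12088 genes with a value in all 4 siRNA libraries, limma called 0 at an adjusted p under 0.05 in each of the 3 comparisons, while an unadjusted p under 0.05 was reached by 609 genes (5.04%) for siDhx30 against NC, 739 (6.11%) for siTfam against NC and 337 (2.79%) for siDhx30 against siTfam. Only 4 of 13 embryonic stem cell markers were in the table, and ratios cannot show whether a marker is expressed, so the labelled cell type could not be checked. The 6 primitive endoderm markers with all values had medians of -0.20 and -0.07 in the siDhx30 libraries and -0.42 and -0.66 in the siTfam libraries. The 2 epiblast markers in the table had medians of 0.16 and 0.24 in siDhx30 and 0.25 and 0.15 in siTfam, and the 4 fibroblast or feeder markers 0.0097 and 0.22 in siDhx30 and 0.15 and 0.24 in siTfam. The 4 embryonic stem cell markers lay between medians of -0.069 (siTfam replicate 2) and -0.023 (siDhx30 replicate 1). The part of such cells in the results below was not tested, and in bulk RNA fewer cells of a type and less RNA per cell cannot be told apart.

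The mitochondrial ribosomal protein genes kept by the rule, which leaves out Mrpl42, had medians close to the NC level in all 4 libraries. All 64 had a value in every library and entered the test. Their median was -0.08 in siDhx30 replicate 1, -0.06 in siDhx30 replicate 2, -0.06 in siTfam replicate 1 and 0.14 in siTfam replicate 2. The medians of all genes tested lay between -0.015 and -0.0057 in these libraries. A siTfam library thus held the one median above NC, and the other siTfam library was level with both siDhx30 libraries.

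The number of members below NC showed the same split. It was 39 of 64 in siDhx30 replicate 1 (51.8% of all genes tested), 36 in siDhx30 replicate 2 (50.9%), 41 in siTfam replicate 1 (51.1%) and 17 in siTfam replicate 2 (51.3%). The spread among members was small in each library, with an SD over genes of 0.26, 0.25, 0.26 and 0.20 in the same order, against 0.55, 0.59, 0.55 and 0.65 over all genes tested. Only 4, 4, 6 and 2 members lay more than 0.5 from NC, against 23.6%, 21%, 23.2% and 25% of all genes tested. These 2 sets are not alike, since all 64 members are protein-coding, against 9257 of the 12088 genes tested. The spread over protein-coding genes alone was not taken. Mrpl42, which the rule leaves out, lay between -2.06 and -1.67 in these libraries. The spreads and counts of members would be larger with it, so the small spread rests in part on that rule. Among the 64 members the lowest single value was -0.80 for Mrpl43 in siDhx30 replicate 1. The highest was 0.97 for Mrpl21 in siDhx30 replicate 2.

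**Figure D1:**
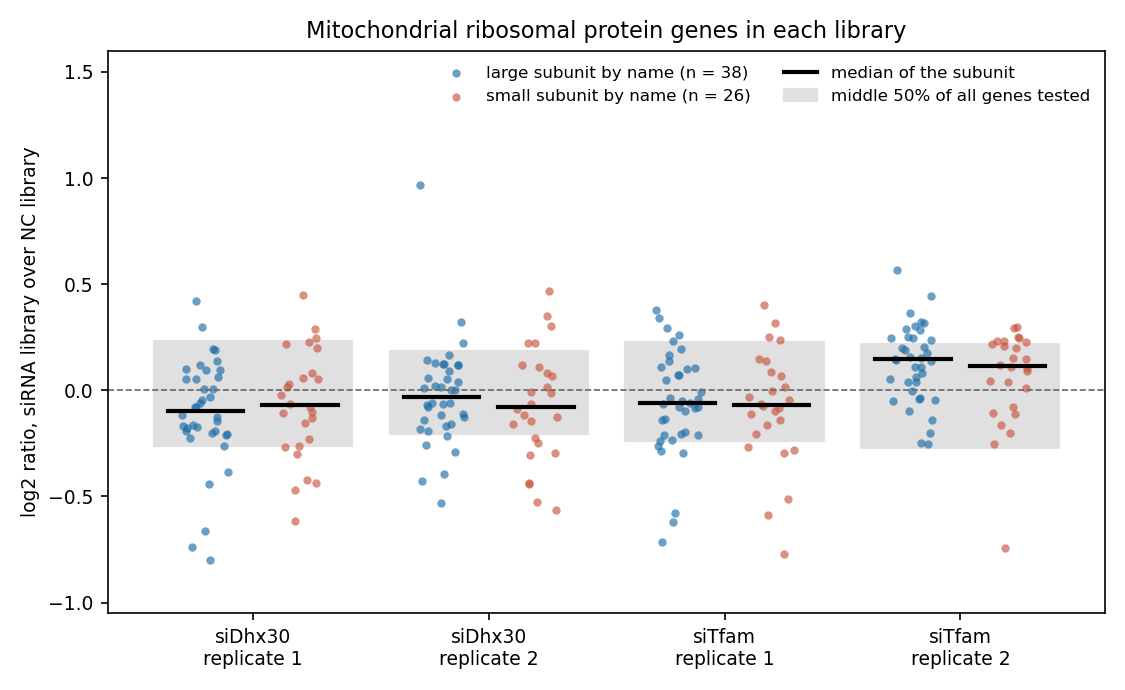
Log2 ratio over NC of each of the 64 genes in each siRNA library, with large subunit genes left and small subunit genes right in each pair; black bars are medians and grey boxes the middle 50% of all genes tested. The members sit inside or near the grey boxes, and the medians of both subunits are above 0 in siTfam replicate 2 alone.

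The medians of the large and the small subunit were set side by side in each library, with no test between them. The large subunit medians were -0.10 and -0.03 in the siDhx30 libraries and -0.06 and 0.15 in the siTfam libraries. The small subunit medians were -0.07 and -0.08 in the siDhx30 libraries and -0.07 and 0.11 in the siTfam libraries. Large minus small came to -0.03 and 0.05 in siDhx30 and to 0.01 and 0.03 in siTfam, with both signs within siDhx30. Names do not give the subunit exactly, since Mrps30 and Mrps18a sit in the large subunit of the mammalian ribosome and Mrps36 belongs to the 2-oxoglutarate dehydrogenase complex. With 40 large and 23 small subunit genes sorted by structure, large minus small was -0.02 and 0.06 in siDhx30 and 0.02 and 0.04 in siTfam.

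With Dhx30 targeted, no mitochondrial ribosomal protein gene passed the test, and the genes farthest below NC were Mrpl54, Mrps22, Mrpl43, Mrps15 and Mrpl18. The group means of siDhx30 lay below NC for 43 of the 64 genes, against 51.9% of all genes tested, with a median of -0.07 against -0.01. The count at an adjusted p under 0.05 was 0 of 64 (0% of all genes tested), and at an unadjusted p under 0.05 it was also 0 of 64. The smallest p was 0.0872, and limma's adjusted p was 0.998 for every member. The median 95% half-width of a member's difference, without adjustment over genes, was 0.61. Smaller shifts in a single gene were not detectable at this spread. The adjusted test asks for larger shifts still, so shifts beyond 0.61 could also go uncalled. Both siDhx30 libraries lay below NC for 29 genes (34.9% of all genes tested) and above it for 18 (32.1%).

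Mrpl54, a large subunit protein with no bacterial counterpart (chr10:81264713-81266934 on GRCm38, minus strand), was at -0.74 and -0.53 in the siDhx30 libraries and at -0.72 and -0.26 in the siTfam libraries. All 4 libraries were below NC, and the 95% interval of its siDhx30 difference from NC ran from -1.42 to 0.15. Mrps22, a small subunit protein specific to mitochondria whose mutation causes disease in humans, was at -0.61 and -0.44 in siDhx30, with -0.77 and -0.11 in siTfam. Mrpl43, also specific to mitochondria, was at -0.80 and -0.18 in siDhx30, with -0.62 and -0.10 in siTfam. In Mrpl54, Mrps22 and Mrpl43, and in Mrpl18 and Mrps12 below, libraries numbered 1 were lower than those numbered 2 in both knockdowns. Mrps15 had this order in siTfam alone. The exons of Mrpl43 overlap those of Twnk, the mitochondrial DNA helicase gene on the opposite strand, and whether the counting used strand is not given in the sources used here.

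Mrps15, which like its bacterial homologue binds the small subunit RNA, was at -0.42 and -0.53 in siDhx30, with -0.51 and -0.20 in siTfam. Mrpl18, of the large subunit, was at -0.66 and -0.21 in siDhx30, with -0.58 and -0.25 in siTfam, and its exons overlap those of Tcp1, a chaperonin gene that itself lay between -0.02 and 0.11 in the 4 libraries. The limma differences of siDhx30 from NC were -0.64 ± 0.28 for Mrpl54, -0.53 ± 0.35 for Mrps22, -0.49 ± 0.39 for Mrpl43, -0.47 ± 0.23 for Mrps15 and -0.44 ± 0.30 for Mrpl18 (SE). None of these differences exceeded the spread between libraries by this test.

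At the other end, the genes with both siDhx30 libraries above NC and the highest means were Mrps36, Mrpl35, Mrps31, Mrpl11 and Mrps17. Mrps36 was at 0.22 and 0.30 in siDhx30, with 0.40 and 0.30 in siTfam, the most even of these genes, and it is the one that does not belong to the ribosome. Its transcript shares near-identical stretches with pseudogenes, so reads could have been split between them. Mrpl35, a large subunit protein with a bacterial homologue, was at 0.42 and 0.04 in siDhx30, with 0.29 and 0.45 in siTfam. Mrpl11, at the base of the stalk that recruits translation factors, was at 0.05 and 0.32 in siDhx30, with 0.05 and 0.24 in siTfam. The siDhx30 differences from NC for these 5 genes lay between 0.18 (Mrps17) and 0.26 (Mrps36), less than the median half-width of 0.61. Mrpl21 had a higher siDhx30 mean of 0.45 ± 0.51 (SE), with -0.06 in replicate 1 and 0.97 in replicate 2, and is named because its values were seen to disagree.

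**Figure D2:**
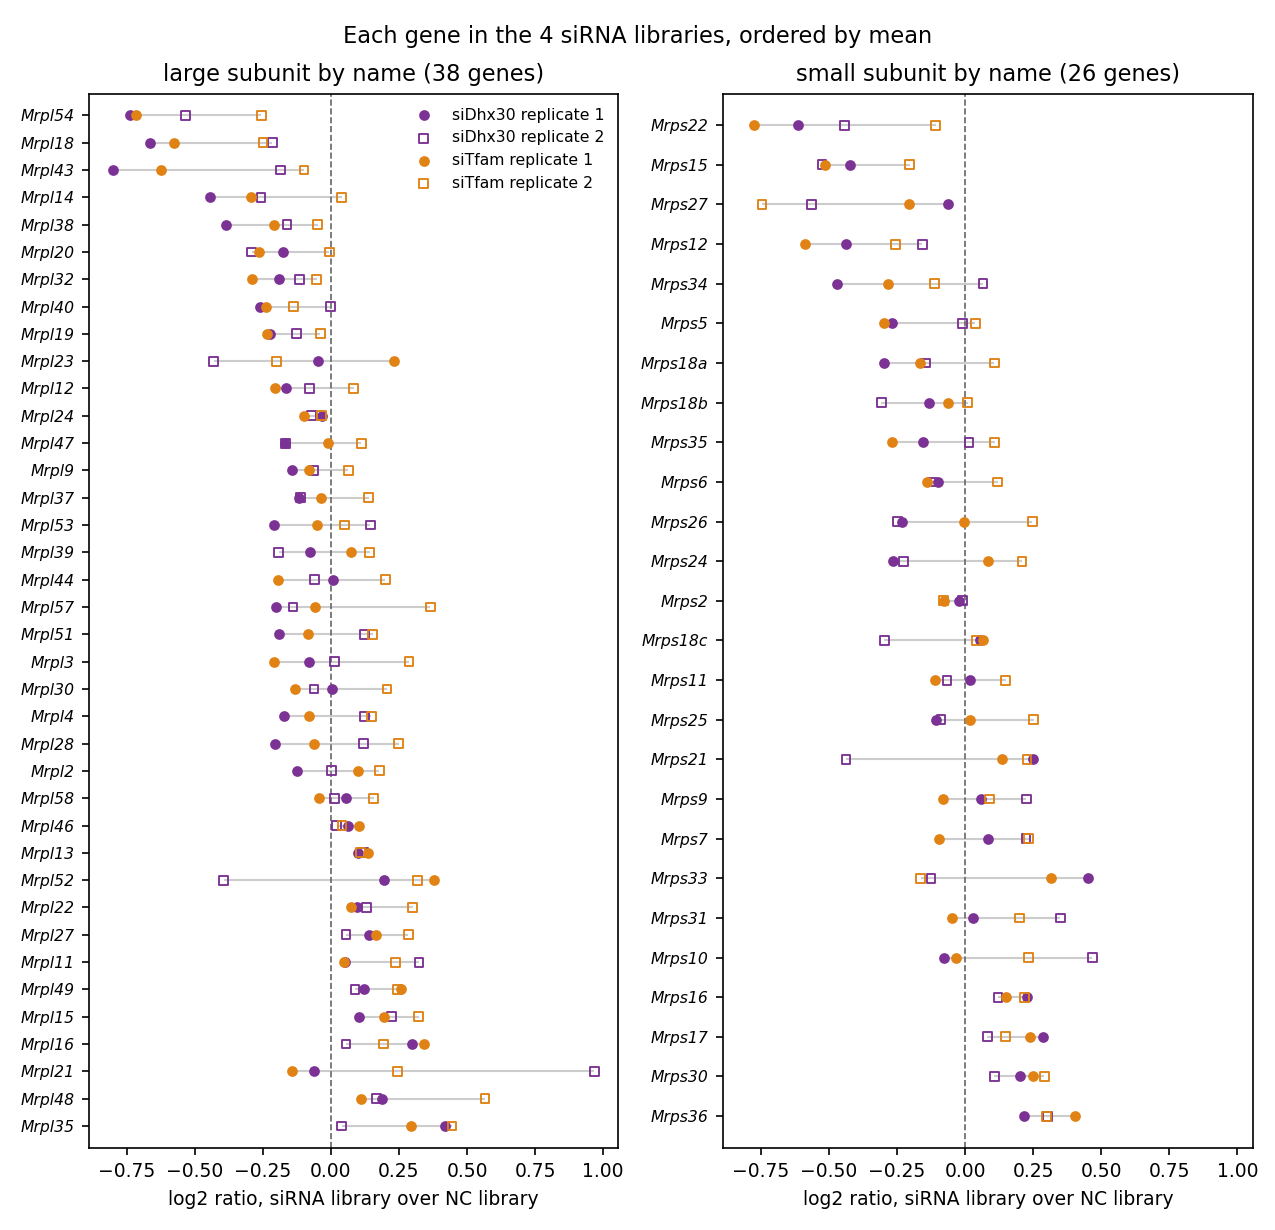
Log2 ratio over NC of every gene in the 4 siRNA libraries (purple, siDhx30; orange, siTfam; filled circles, replicate 1; open squares, replicate 2), large subunit left and small subunit right, ordered by mean. Mrpl54 and Mrps22 lead the low end, Mrpl35 and Mrps36 the high end, and most genes span 0.

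With Tfam targeted, again no gene passed the test. The genes farthest below NC were Mrpl54, Mrps27, Mrps22, Mrps12 and Mrpl18, and those farthest above it Mrpl35, Mrps36, Mrpl52, Mrpl48 and Mrps30. Both comparisons share the NC library, so a gene at the same end in each is not seen independently. The siTfam means lay below NC for 23 of 64 genes, against 52.7% of all genes tested, with a median of 0.05 against -0.02. The count at an adjusted p under 0.05 was 0 of 64 (0% of all genes tested), with limma adjusted p-values from 0.912 to 0.999, and no member reached an unadjusted p under 0.05. Both siTfam libraries lay below NC for 15 genes (34.4% of all genes tested) and above it for 21 (32%). The count of 23 rests on which siTfam library is used, since it was 41 when siTfam replicate 2 was left out and 17 when siTfam replicate 1 was. Over all 12088 genes tested the counts were 6183 and 6205 in the same order.

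Mrps27, a small subunit protein with pentatricopeptide repeats, was at -0.21 and -0.75 in siTfam, with -0.06 and -0.56 in siDhx30, so here the libraries numbered 2 were the low ones. Mrps12, whose bacterial homologue lies at the decoding centre, was at -0.59 and -0.25 in siTfam, with -0.44 and -0.16 in siDhx30. Mrpl52, a mitochondria-specific large subunit protein, was at 0.38 and 0.32 in siTfam, with 0.19 and -0.39 in siDhx30. Mrps12 and Mrps27 were below NC in all 4 libraries, whereas Mrpl52 was above NC in 3 of 4. Mrpl48, of the large subunit, was at 0.11 and 0.57 in siTfam, with 0.19 and 0.17 in siDhx30, and its sequence is shared with the pseudogene Mrpl48-ps. Mrps30, a large subunit protein despite its name, was at 0.25 and 0.29 in siTfam, with 0.20 and 0.11 in siDhx30. The siTfam differences from NC were -0.48 ± 0.37 for Mrps27, -0.42 ± 0.26 for Mrps12, 0.35 ± 0.31 for Mrpl52, 0.34 ± 0.27 for Mrpl48 and 0.27 ± 0.18 for Mrps30 (SE).

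All 4 siRNA libraries were below NC for 14 genes (22.4% of all genes tested), namely Mrpl18, Mrpl19, Mrpl20, Mrpl24, Mrpl32, Mrpl38, Mrpl40, Mrpl43, Mrpl54, Mrps2, Mrps12, Mrps15, Mrps22 and Mrps27. All 4 were above NC for another 14 (20.1%), namely Mrpl11, Mrpl13, Mrpl15, Mrpl16, Mrpl22, Mrpl27, Mrpl35, Mrpl46, Mrpl48, Mrpl49, Mrps16, Mrps17, Mrps30 and Mrps36. These shares were close to those of all genes tested, and each such gene is set against the same single NC library.

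The direct comparison of siDhx30 with siTfam does not depend on the NC library, which cancels. The siDhx30 mean was below the siTfam mean for 50 of the 64 genes, against 50.2% of all genes tested, with a median difference of -0.08 against -0.0015. No single gene passed the test (0 of 64 at an adjusted p under 0.05, 0% of all genes tested; limma adjusted p = 0.999 for every member), and none reached an unadjusted p under 0.05. This test took the libraries as unpaired, although deviations of libraries with the same number correlated at 0.59 over members. The large subunit had 33 of 38 genes below and a median of -0.09, and the small subunit had 17 of 26 below and a median of -0.03. The large minus small difference of medians was -0.07, but 0.038 without siDhx30 replicate 1 and -0.0016 without siTfam replicate 2, and -0.17 over the 27 members free of exon overlap and near-identical copies (an alternative chosen after seeing the data).

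This lean towards lower siDhx30 values rested on siTfam replicate 2. Without that library 29 of 64 genes had the lower siDhx30 value and the median was 0.03, and without siTfam replicate 1 the count was 55 and the median -0.18. Over all 12088 genes tested the counts were 6007 and 6189 in the same order. By subunit, leaving out siTfam replicate 2 gave 17 of 38 large and 12 of 26 small subunit genes with the lower siDhx30 value. Across 9257 protein-coding genes the ratio in siTfam replicate 2 went with transcript length at a Spearman rho of -0.18, that in siDhx30 replicate 1 at 0.18, and the remaining libraries at 0.03 (siDhx30 replicate 2) and 0.06 (siTfam replicate 1). With GC content the rho was -0.33 in siDhx30 replicate 1, -0.08 in siDhx30 replicate 2, -0.24 in siTfam replicate 1 and -0.07 in siTfam replicate 2. The members' longest transcripts have a median of 1866 bases, against 3614 for the protein-coding genes tested, whereas GC content was alike (49.6% against 49.8%). With a trend on length and GC content removed from each library, 40 of 64 genes had the lower siDhx30 mean and the median difference was -0.04. Over all genes tested under this setting, 6234 of 11859 had the lower siDhx30 mean, with a median of -0.011.

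The siDhx30 and siTfam libraries did not overlap for 14 of the genes. In 13 of them siDhx30 was lower (14.3% of all genes tested) and in 1, Mrps2, siDhx30 was higher (14.7%). The 13 were Mrpl2, Mrpl27, Mrpl37, Mrpl39, Mrpl47, Mrpl49, Mrpl52, Mrpl57, Mrps18b, Mrps24, Mrps25, Mrps26 and Mrps30. Mrps24, a small subunit protein with a bacterial homologue, was at -0.26 and -0.23 in siDhx30, with 0.09 and 0.21 in siTfam, and had the smallest p of the members (difference -0.39 ± 0.15 SE, limma adjusted p = 0.999). Its libraries agreed well within each knockdown, with a gap between knockdowns wider than the gap within either. Mrps26, a small subunit protein of mitochondria, was at -0.23 and -0.25 in siDhx30, with -0.0048 and 0.25 in siTfam (difference -0.36 ± 0.17 SE), and part of its transcript is a repeat found in many other genes. Mrpl52, given above, had the lowest difference at -0.45 ± 0.25 (SE), with its siDhx30 libraries on either side of NC. Mrpl57, of the large subunit, was at -0.20 and -0.14 in siDhx30, with -0.06 and 0.36 in siTfam. Mrps2 was at -0.02 and -0.01 in siDhx30, with -0.08 and -0.08 in siTfam, a difference of 0.06 ± 0.14 (SE).

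**Figure D3:**
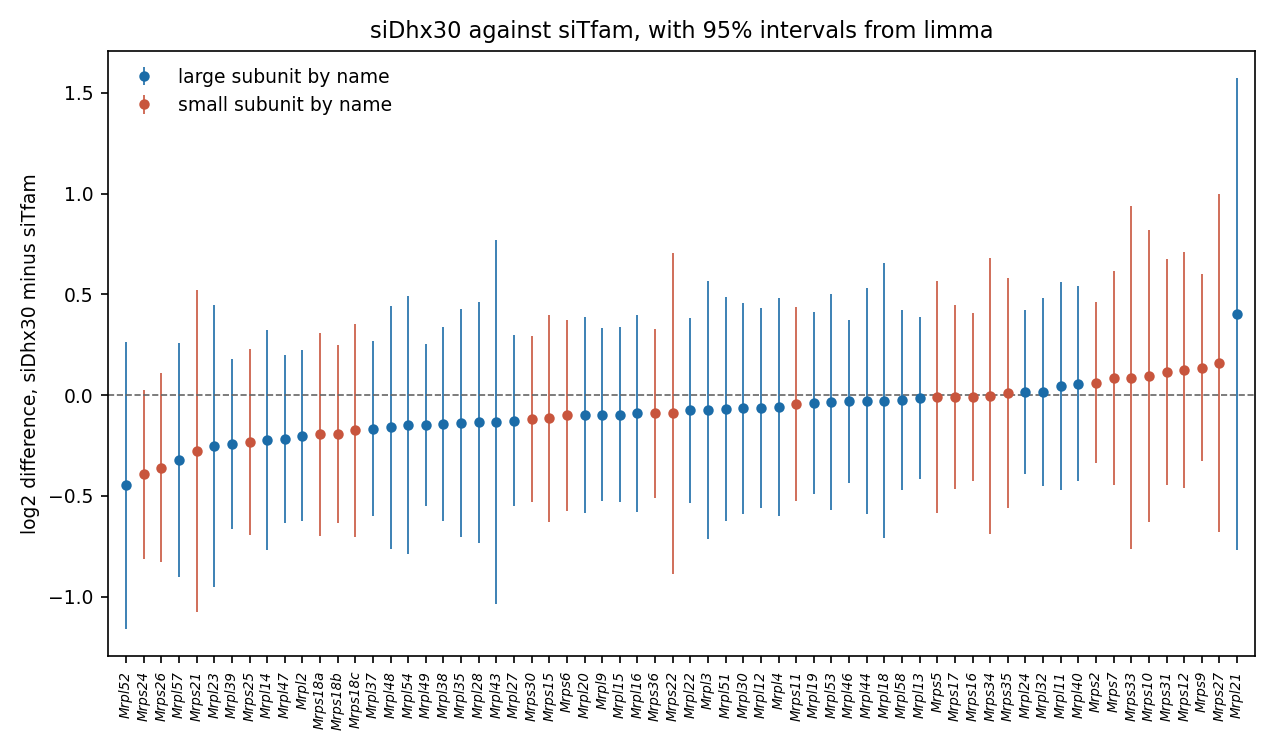
Log2 difference of siDhx30 minus siTfam for each gene with its 95% interval from limma, ordered by size; blue, large subunit; red, small subunit. The points of 50 genes lie below 0, and every interval includes 0.

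Sorted by evolutionary origin, the mitochondria-specific proteins of the large subunit lay lowest in the direct comparison. Their median difference was -0.14, with siDhx30 below siTfam for 16 of 17 genes. Without siTfam replicate 2 it was -0.058, with 9 of 17 genes below. Without siDhx30 replicate 1 it was -0.064, with 13 of 17 below, and the small subunit proteins with a bacterial homologue lay lower, at -0.086. The medians were -0.07 for the 23 large subunit proteins with a bacterial homologue, -0.01 for the 15 small subunit proteins with one and 0.0032 for the 8 mitochondria-specific small subunit proteins. Mrps18a, which sits in the large subunit, was counted among the 17 mitochondria-specific genes, although it is a homologue of a bacterial small subunit protein. No test was made between the classes.

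Members with well-studied roles of their own differed in where they lay. Mrps12 and Mrps27, given above, were below NC in all 4 libraries, and Mrpl11 and Mrps30 were above it in all 4. Mrpl12, the stalk protein that also binds the mitochondrial RNA polymerase in human cells, was at -0.17 and -0.08 in siDhx30, with -0.20 and 0.08 in siTfam. Mrpl44, a ribonuclease-like protein of the large subunit, was at 0.01 and -0.06 in siDhx30, with -0.19 and 0.20 in siTfam. Mrpl58, which can release stalled peptides, was at 0.05 and 0.01 in siDhx30, with -0.04 and 0.16 in siTfam. Mrpl12, Mrpl44 and Mrpl58 each had libraries on both sides of NC. Of the homologues of one bacterial small subunit protein, Mrps18a, which sits in the large subunit, was at -0.30 and -0.15 in siDhx30, with -0.16 and 0.11 in siTfam. Mrps18b was at -0.13 and -0.31 in siDhx30, with -0.06 and 0.01 in siTfam, and Mrps18c at 0.05 and -0.30 in siDhx30, with 0.07 and 0.04 in siTfam. Mrps18a and Mrps18b were below NC in both siDhx30 libraries, and Mrps18c was below NC in 1 of 4 libraries.

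No other gene measured in the same machinery passed the adjusted test. Of 4 ribosomal proteins measured under other names, Dap3, a GTP-binding protein of the small subunit, was at -0.29 and -0.30 in siDhx30, with -0.26 and -0.13 in siTfam. Chchd1, another small subunit protein, was at 0.32 and 0.12 in siDhx30, with 0.46 and 0.34 in siTfam. Dap3 was below NC and Chchd1 above it in all 4 libraries. Of 26 genes listed here by hand as assembly factors, the targeted Dhx30 among them, 0 passed the adjusted test in any comparison. Of these, 0 reached an unadjusted p under 0.05 by limma. The role of each listed gene in assembly was not checked. Medians over these 26, Dhx30 included, were -0.10 for siDhx30 against NC, -0.03 for siTfam against NC and -0.08 for siDhx30 against siTfam. Assembly factors scattered more than the ribosomal proteins, with Rpusd4, a pseudouridine synthase, at -0.25 and 1.92 in siDhx30 and -0.29 and 0.15 in siTfam. Mrm1, which methylates the large ribosomal RNA, was at 0.11 and 1.08 in siDhx30 and 0.79 and 1.01 in siTfam. The lowest single values over this list were -0.76 (Mcat) and -0.61 (Tfb1m) in siDhx30 replicates 1 and 2. In siTfam replicates 1 and 2 they were -0.90 (Rpusd3) and -0.93 (Ybey).

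Of 13 translation factors 0 passed the adjusted test, and Mtrf1, a release factor, alone reached an unadjusted p under 0.05. It was at -0.93 and -0.83 in siDhx30, with -0.52 and -0.68 in siTfam. All 4 libraries were below NC and the siDhx30 libraries were below the siTfam libraries. The limma differences from NC were -0.88 ± 0.19 for siDhx30 (adjusted p = 0.695) and -0.60 ± 0.19 for siTfam (adjusted p = 0.776). Mtrf1l, the paralogue that ends translation at standard stop codons in human mitochondria, was at -0.43 and -0.93 in siDhx30, with -0.19 and -0.48 in siTfam. It too was below NC in all 4 libraries, and neither gene passed the adjusted test. The medians of the 13 translation factors were -0.04 for siDhx30 against NC, -0.07 for siTfam against NC and -0.05 for siDhx30 against siTfam. Their highest single values were 0.14 (Guf1) and 0.40 (Tsfm) in siDhx30 replicates 1 and 2. In siTfam replicates 1 and 2 the highest were 0.09 (Gfm2) and 0.30 (Mtfmt).

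Some features of the start sites, which the rule did not use, were more frequent among the members than among the protein-coding genes tested. These were head-to-head starts, the ETS core and the YY1 core. The NRF1 core was slightly more and the E-box slightly less frequent, but they stood in only 5 and 4 windows of members. A protein-coding gene starts on the opposite strand within 1000 bp of 29 of the 64 genes (45.3%), against 1617 of the 9257 protein-coding genes tested (17.5%). RefSeq promoter windows of 300 bases (250 before the start and 50 after it) matched 56 of the 64. The ETS core CCGGAAG, searched on both strands, stood in 21 of 56 windows (37.5%), against 19.9% of 7430 windows of protein-coding genes tested and 9.12% of all 27025 windows. The YY1 core AAGATGG stood in 11 windows (19.6%), against 7.64% and 6.48% of the same sets. The NRF1 core GCATGCG stood in 5 (8.93%, against 7.29% and 3.64%), and the E-box CACGTG in 4 (7.14%, against 10.4% and 7.24%). These matches are descriptions of letters in the windows, and no test was made on them.

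**Figure D4:**
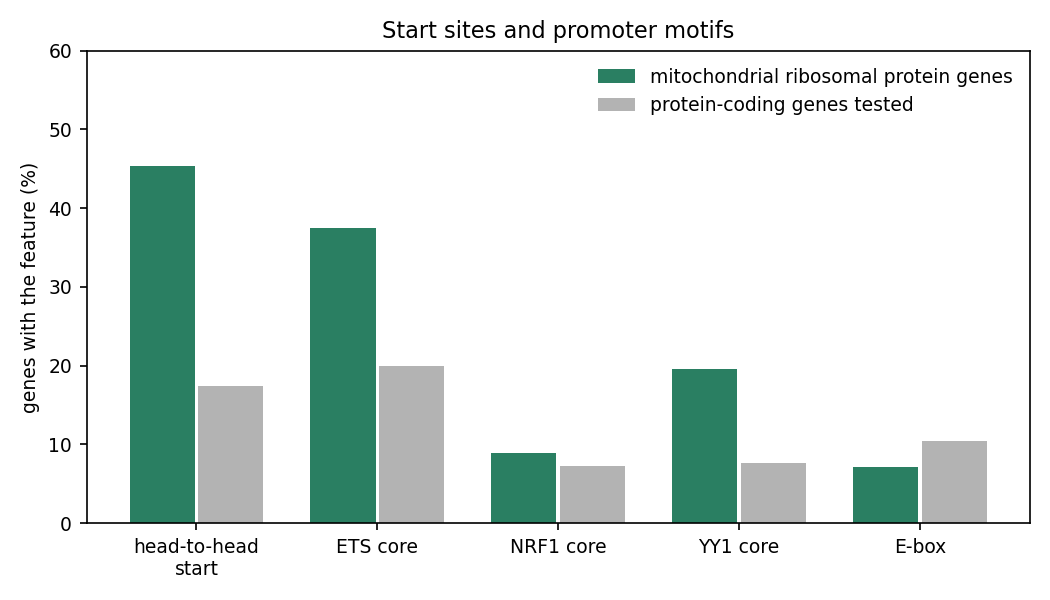
Share of genes, in percent, with a head-to-head protein-coding start within 1000 bp or with each motif in the RefSeq promoter window, for the mitochondrial ribosomal protein genes (green) and the protein-coding genes tested (grey). The green bars for head-to-head starts, ETS cores and YY1 cores reach 45.3%, 37.5% and 19.6%, above grey bars at 17.5%, 19.9% and 7.64%.

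Medians of members with and without these features are given as descriptions. For siDhx30 against NC the median was -0.10 with the ETS core and -0.04 without it, -0.13 and -0.04 for the NRF1 core, -0.11 and -0.04 for the YY1 core, and -0.12 and -0.04 for the E-box. For siTfam against NC all of these medians were 0.05, except that of the members with the NRF1 core, at -0.0071. In the direct comparison the medians with and without were -0.07 and -0.09 for the ETS core, -0.10 and -0.09 for the NRF1 core, -0.14 and -0.09 for the YY1 core, and -0.17 and -0.07 for the E-box. The NRF1 core and the E-box rest on 5 and 4 genes. Members with a head-to-head partner had medians of -0.11 for siDhx30 against NC, 0.04 for siTfam against NC and -0.07 in the direct comparison, and the other 35 had -0.04, 0.08 and -0.09. For 21 of the 29 the partner was outside the list and had values too. In these pairs the members had the lower siDhx30 mean in 17 of 21 with a median difference of -0.12, and the partners in 7 of 21 with a median of 0.08. Across the 21 pairs the Spearman rho between partner and member was 0.04, a description only, since each pair shares its libraries. In the Mrpl46 and Mrps11 pair, whose shared upstream stretch is printed above, Mrpl46 was at 0.06 and 0.02 in siDhx30, with 0.10 and 0.04 in siTfam, and Mrps11 was at 0.02 and -0.07 in siDhx30, with -0.11 and 0.15 in siTfam.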

How the data were processed

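RNA-seq of 5 libraries was deposited as 1 table. Per the submitters' processing notes, reads were handled with bcl2fastq, HISAT2, featureCounts and DESeq2 (given as version 3.14) on GRCm38; the sources used here name no settings and no use of strand. Per the file headers, the authors deposited log2 fold values, 1 column for each siRNA library, and 0 value columns went unused. Depth is unknown.

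Values were multiplied by -1. The 12088 genes with 4 values were fitted with limma 3.58.1 (R 4.3.3, robust=TRUE, no abundance trend), the NC library entering as a column of zeros and being assumed to vary like the siRNA libraries, which leaves 2 residual degrees of freedom (median prior degrees of freedom 2.02). P-values were Benjamini-Hochberg adjusted over all genes within a comparison, threshold 0.05. The fit was run on simulated independent libraries with the same noise for every gene, to check the estimated size of planted shifts. Every planted shift was larger than any member's difference, so this run does not show what could be detected here. Gene names were matched to GENCODE symbols on GRCm38 (12660 of 12930). The members and lists were chosen with earlier results of these data known.

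Named genes were, for each comparison, members past the threshold, the 5 highest and 5 lowest whose libraries lay on 1 side of NC (or did not overlap between knockdowns), a fixed set of members with known roles, both targeted genes, and the 2 highest and 2 lowest of each related list. Not every gene the rule gives is printed.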

Additional observations from a re-analysis of the deposited data

Results flagged for a closer look

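Mrpl39, Mrps24 and Mrps25 had both siDhx30 libraries below NC and both siTfam libraries above it. Mrps24 differed by -0.39 between siDhx30 and siTfam, with values given in the report. Mrpl39, a large subunit protein of mitochondria, was at -0.08 and -0.19 in siDhx30, with 0.07 and 0.14 in siTfam, a difference of -0.24. Mrps25, of the small subunit, was at -0.11 and -0.09 in siDhx30, with 0.02 and 0.25 in siTfam, a difference of -0.23. The direct limma comparison tested these differences and passed none (adjusted p = 0.999 for each). Such a pattern held for 3 of 64 members (4.69%) and for 2.47% of all genes tested, and the opposite pattern for 0 of 64 members and 2.42% of all genes tested.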

How the results depend on the processing

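The count of members past the adjusted threshold was 0 in each comparison under each alternative run: each siRNA library left out, genes with missing values kept, robust=FALSE, median-centring, mitochondrially encoded genes left out, a length and GC trend removed, and, for the direct comparison, a replicate block. With the replicate block, 566 genes against 337 reached an unadjusted p under 0.05; the block cannot move a difference of group means here. Deviations of libraries with the same number correlated at 0.25 over all genes and 0.59 over members. With only 2 numbers and no label tying them, whether these libraries share more than a number was not tested.

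With only members free of exon overlap and near-identical copies (an alternative chosen after seeing the data) large minus small subunit was -0.057 for siDhx30 against NC, 0.15 for siTfam against NC and -0.17 for siDhx30 against siTfam. For siTfam against NC this difference was 0.062 with the trend removed and 0.025 with subunits by structure. The siDhx30 median was -0.053 with the trend removed.

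With single libraries left out, the median ranged from -0.079 to -0.062 for siDhx30 against NC, from -0.063 to 0.14 for siTfam against NC and from -0.18 to 0.028 for siDhx30 against siTfam. The medians of the siTfam and the direct comparison thus changed sign. Large minus small ranged from -0.026 to 0.050 for siDhx30 against NC, from 0.0081 to 0.032 for siTfam against NC and from -0.059 to 0.038 for the direct comparison. Members lower ranged from 17 to 41 for siTfam against NC and from 29 to 55 for the direct comparison. Over all 12088 genes tested these counts ranged from 6183 to 6365 and from 5820 to 6189.

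Small differences of single genes changed sign. With the trend removed, Mrpl44 was at 0.021 for siDhx30 against NC, -0.025 for siTfam against NC and 0.046 for the direct comparison, Mrps18a at 0.046 and Mrps18c at -0.12 for siTfam against NC, and Mrpl12 at 0.021 and Mrps36 at 0.011 for the direct comparison. With single libraries left out, siDhx30 against NC ranged from -0.061 to 0.0084 for Mrpl44 and from -0.30 to 0.055 for Mrps18c. For siTfam against NC the ranges were -0.19 to 0.20 for Mrpl44, -0.20 to 0.084 for Mrpl12, -0.042 to 0.16 for Mrpl58, -0.16 to 0.11 for Mrps18a and -0.063 to 0.0091 for Mrps18b. For the direct comparison they were -0.23 to 0.17 for Mrpl44, -0.35 to 0.00096 for Mrps18c, -0.21 to 0.083 for Mrpl12, -0.12 to 0.076 for Mrpl58, -0.090 to 0.18 for Mrpl11, -0.043 to 0.29 for Mrps12 and -0.11 to 0.43 for Mrps27. The cause was not tested. The single NC library and the unknown depth limit every comparison against NC.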
